A study of Mus musculus with 2 samples.

Results

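Transcript models that lie on the strand opposite to an annotated gene were described in long-read RNA sequencing of mouse adrenal gland. They were selected on their class and their reads: models that the deposited tables call Antisense, without spike-ins and with at least 5 reads in a library. Replicate 1 held 1030 such models of 130321 and replicate 2 held 1398 of 118690. Joined across libraries wherever exons overlapped on the same strand, they formed 1604 loci opposite 1386 different annotated genes. The series is 1 group of 2 libraries, made from 1 µg of total RNA each, from adrenal glands of female B6CASTF1/J mice aged 18 to 20 months with no treatment named. B6CASTF1/J is an F1 hybrid strain. The labels number the biosamples as different females yet list 1 donor entry for both, so it is not settled that they came from separate animals, and tests between the libraries cover counting error alone. Replicate 1 held 1478362 reads and replicate 2 held 1007541, of which 1460022 and 991989 were mouse reads. CPM are read counts per 1000000 mouse reads of the library. Where no read was found, up to 3 could have been missed, which is 2.05 CPM in replicate 1 and 3.02 in replicate 2. The 5 marker genes of the adrenal cortex summed to 69793.5 and 67091.5 CPM and those of the medulla to 11603.9 and 8855.9 CPM, against 6.85 and 5.04 CPM for liver and 2.05 and 2.02 CPM for kidney. Skeletal muscle markers stood at 408.9 CPM in replicate 1 and 2.02 CPM in replicate 2.

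Natural antisense transcripts are RNAs made from the strand opposite to another gene. They can start at a promoter shared with that gene, inside its body, or beyond its 3′ end, and some are known to regulate the chromatin, splicing or stability of the RNA they face. Antisense reads in cDNA libraries can also come from cDNA strands that were primed at internal runs of A or read in the wrong direction, because a read without introns carries its strand only in its primer ends. The bases past the 3′ end of a model and the bases at its introns are therefore shown before the read numbers.

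The sequences below are the last 10 bases of 8 abundant or adrenal loci and the 20 bases of the genome that follow their 3′ end, on the strand of the antisense model. They were read from GENCODE M21 transcript sequences (build mm10), and capitals mark the longest run of A past the model's end. Actb encodes cytoplasmic actin, Tacc1 a coiled-coil protein of the centrosome, Cavin1 a coat protein of caveolae, and Soat1 the enzyme that esterifies cholesterol for storage. Dpysl2 acts in axon growth and Fdx1 encodes the ferredoxin that passes electrons to mitochondrial steroid hydroxylases. Kcnk3 encodes a background potassium channel of the adrenal cortex and Gnb1 a G protein subunit.
Actb, chr5:142903492-142903521, plus strand: gacaaaaccaAAAAAAAAAAAAAAcaaaac
Tacc1, chr8:25158023-25158052, plus strand: aagattaaggcAAAAAAAAAAAAAAAAAAA
Cavin1, chr11:100958465-100958494, plus strand: ccggtttgtttAAAAAAAAAAAAAAAAgcc
Soat1, chr1:156428523-156428552, plus strand: acatggtttgAAAAAAAAAAAAAAAAAAAA
Dpysl2, chr14:66804505-66804534, plus strand: agttaagaggAAAAAAAAAAAAAAAAAAAA
Fdx1, chr9:51945837-51945866, plus strand: atgatgggtgAAAAAAAAAAAAAAAAAAAA
Kcnk3, chr5:30622937-30622966, minus strand: ggtgatgggctggggActtcccatggggcc
Gnb1, chr4:155557943-155557972, minus strand: ccaaagtcttgctacAAAtgacttatattt
In the upper 6 the antisense model stopped at a run of 14 to 20 A, which on the strand of the opposite gene is a run of T. In the lower 2 the longest run past the end was of 1 and 3 A.

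The second set concerns the splicing of these models. It holds a selection of spliced junctions of antisense models, 15 bases on either side, with the 4 bases around the junction in capitals. All were taken from the 25 of 46 different introns that mirror an annotated intron, and no other junction is shown. Each was read as the reverse complement of an annotated transcript of the opposite gene, because the antisense intron has exactly the coordinates of an annotated intron of that gene.
Crebbp, intron chr16:4180134-4213138, plus strand: acaatgatccaaaATCTgtgttgtcattcg
Igf1r, intron chr7:67952953-68003809, minus strand: tgccgggcccacaGATTtctccactcgtcg
Mbnl1, intron chr3:60529805-60595593, minus strand: tctggagcaacgaCCTTtcagtgaatcaaa
Gtf2a1, intron chr12:91586802-91589534, plus strand: tctatacaatttaGGCAcggtgtttgtgtt
Nr2f2, intron chr7:70354932-70357762, plus strand: acagaccacaggcATCTgaggtgaacagga
Introns are usually bounded by GT and AG on the transcribed strand. The bases at the ends of both mirrored Nr2f2 introns could be read and were CT-AC on the strand of the antisense model, which is the reverse complement of GT-AG. Of 46 different introns of the members, 3 could be read in this way, 2 of them CT-AC and 1, opposite Araf, GT-AG.

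The libraries differed in the share of reads that lay on Antisense models. All Antisense models, those under 5 reads included, took 2.72% of mouse reads in replicate 1 (39657 reads on 11017 models) and 5.05% in replicate 2 (50061 reads on 13314 models). Most had a single read, 67.2% and 64.6% of models. The members held 25746 and 32991 reads, which is 64.9% and 65.9% of antisense reads. Their median was 8 reads in both libraries and the highest were 3541 and 4325. Just inside the threshold, 219 and 296 members had exactly 5 reads, and just outside it 342 and 487 models had 4. Skeletal muscle markers moved the other way between the libraries, and their part in the antisense share was not tested.

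Nearly all members faced a gene of the annotation. The opposite gene was annotated for 97.9% of members in replicate 1 and 98.0% in replicate 2, and protein-coding for 93.7% and 93.4%. The other 22 and 28 members faced gene models that are themselves new. The label was not exact for every member: 23 members in replicate 1 and 36 in replicate 2 also overlapped an annotated gene on their own strand, with 1241 and 4772 reads. Of the loci, 46 overlapped a same-strand gene of M21 and 72 one of RefSeq. Most of the 4772 reads of such members in replicate 2 lay on 1 model. It lay opposite the long non-coding gene Gm26825 (chr5:5781530-5781615, 86 bases), with 0 reads in replicate 1 and 3686 in replicate 2, within the span of the same-strand pseudogene Gm15459. The tables also list models without real length. There were 30 and 40 members under 50 bases, 26 and 37 of them of a single base, with 726 and 1051 reads. Over all members the median length was 1543 and 1550 bases, with quartiles from 736.2 to 2427.2 and from 672.2 to 2797.5 bases.

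Most loci were seen in both libraries. Of replicate 1 members, 95.8% overlapped an Antisense model of replicate 2 (interval 94.4 to 97%), and 92.9% of replicate 2 members overlapped one of replicate 1 (interval 91.4 to 94.2%). With 5 or more reads asked for there too, the shares were 75.5% and 56.5%. All intervals are exact 95% Clopper-Pearson intervals and cover counting error only. Intergenic models of 5 or more reads, matched in the same way, were found at 86.1% and 80.3%. Of the 1604 loci, 737 had members in both libraries, 254 in replicate 1 only and 613 in replicate 2 only, and 1463 had antisense reads in both. Across loci with members in replicate 1, log2(CPM + 1) correlated between the libraries with Pearson's r = 0.714 and CPM with Spearman's rho = 0.657 (n = 991). These are given as a description, since the loci share 2 libraries and were chosen on their reads.

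**Figure D1:**
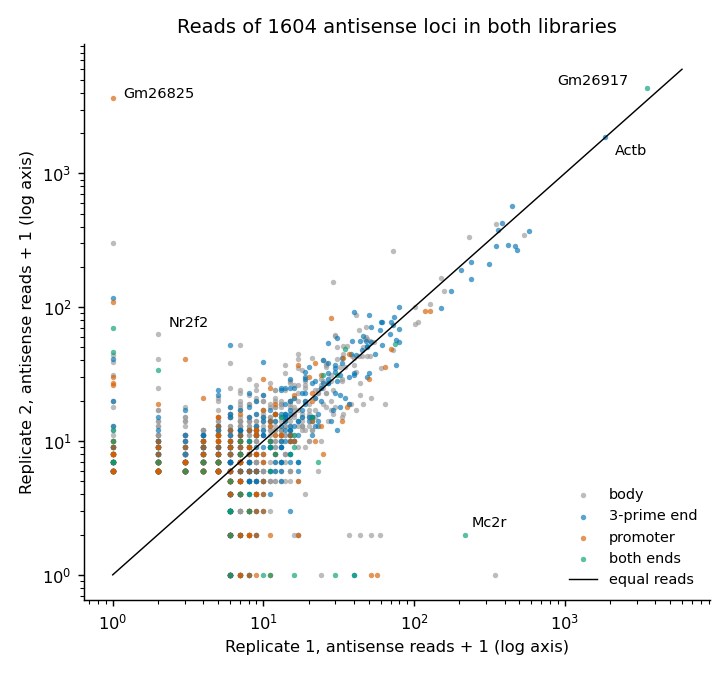
Antisense reads of each of the 1604 loci in replicate 1 (horizontal) and replicate 2 (vertical), both as reads + 1 on log axes; each point is a locus, coloured by its position against the opposite gene, and the line marks equal reads. Most abundant loci lie near the line, with Gm26917 and Actb at its upper end, while the loci at Gm26825 (0 and 3686 reads), Nr2f2 (1 and 62 reads) and Mc2r (216 reads and 1 read) lie far from it.

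The most abundant locus lay opposite the lincRNA Gm26917 (chr17:39843013-39846245), with 3541 reads in replicate 1 and 4325 in replicate 2, against 244 and 175 reads of Gm26917 itself. CT010467.1, a gene of ribosomal RNA type on the same strand as this model, ends 108 bases before the model's 5′ end. The locus opposite CT010467.1 had 420 and 291 reads (chr17:39846353-39846958). It also overlaps Gm42418 on its own strand, so reads of that gene and of the antisense model cannot be told apart here. Both libraries held these loci at high level.

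The next of the loci found in both libraries was Actb, with 1836 and 1856 antisense reads (chr5:142902529-142903501) against 1485 and 805 reads of Actb. RefSeq places Gm38733 on the same strand there, so reads of that gene and of the antisense model cannot be told apart. At Tacc1 the antisense reads were 575 and 373 (chr8:25154552-25158032), against 77 and 60 of the gene. At both the antisense locus held more reads than the coding gene in both libraries. Cavin1 gave 465 and 285 antisense reads (chr11:100955521-100958474) against 232 and 142. Ywhaz, which encodes a 14-3-3 adaptor protein, gave 449 and 572 (chr15:36770770-36771704) against 254 and 166. Gnb1 gave 357 and 379 (chr4:155557963-155559267) against 326 and 223. These loci too exceeded their genes in both libraries, by less at Gnb1 than at Tacc1. The phosphatase gene Ptp4a2 gave 347 and 419 antisense reads (chr4:129839151-129839678) against 195 and 165, and Cdv3 gave 230 and 331 (chr9:103354457-103355313) against 43 and 36.

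Kcnk3 and Soat1, by contrast, had more reads than the abundant antisense loci opposite them. Kcnk3 had 382 and 423 antisense reads (chr5:30622957-30625271) against 2058 and 1394 of the gene. Soat1 had 313 and 209 (chr1:156424525-156428532) against 710 and 511. The long non-coding transcripts Tmem250-ps and 2900097C17Rik were exceeded by their antisense loci, with 348 and 287 reads against 52 and 39 at Tmem250-ps and 237 and 218 against 172 and 111 at 2900097C17Rik. The locus opposite Gml2 (chr15:74831508-74834125, 478 and 267 reads) lies within the same-strand span of Cyp11b1, whose product makes corticosterone, so these reads cannot be told apart from those of that gene. Among loci with 20 or more antisense reads that face an annotated gene, those with the most per read of the gene named in the deposited annotation were CT010467.1, Sept2, Dpysl2, Dbpht2 and Gm20300. At Sept2 205 and 188 antisense reads stood against 3 and 6, at Dpysl2 174 and 132 against 5 and 2, at Gm20300 118 and 93 against 1 and 6, and at Dbpht2 20 and 13 against 1 and 0. M21 holds a second gene called Sept2 at the same place, and with it the opposite reads at Sept2 were 34 and 30, while Hint3 beside Gm20300 brought them there to 35 and 36, and neither locus then ranks among these 5. Of 1564 loci, 94 (6.01%) faced 2 or more annotated genes.

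By position, the members lay mostly inside gene bodies, but loci at 3′ ends held a larger share of reads than of loci. A model was placed at the promoter when its span came within 1000 bases of the start of the opposite gene, at the 3′ end when within 1000 bases of its end, at both ends when both held, and otherwise in the body. Gene starts and ends are those of M21. Gene bodies held 56.8% of members in replicate 1 (from 53.7 to 59.8%) and 62.4% in replicate 2 (from 59.8 to 65%). The 3′ end held 28.3% (interval 25.5 to 31.1%) and 24.1% (interval 21.9 to 26.4%), the promoter 11.8% (interval 9.93 to 14%) and 11.3% (interval 9.69 to 13.1%), and both ends 3.11% and 2.15%. Of the loci, 984 lay in bodies, 381 at 3′ ends, 194 at promoters and 45 at both ends. The 381 loci at 3′ ends held 41.9% and 33.1% of all locus reads, the promoter loci 6.55% and 17%, and the high promoter share of replicate 2 includes the 3686 reads opposite Gm26825. The opposite genes had a median span of 38661 bases for body loci, 28511 for 3′ end loci, 24942 for promoter loci and 1894 for loci at both ends. The shares depended on the window: with 500 or 2000 bases the promoter held 8.04% or 21.5% of loci and the 3′ end 16.2% or 29.6%.

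**Figure D2:**
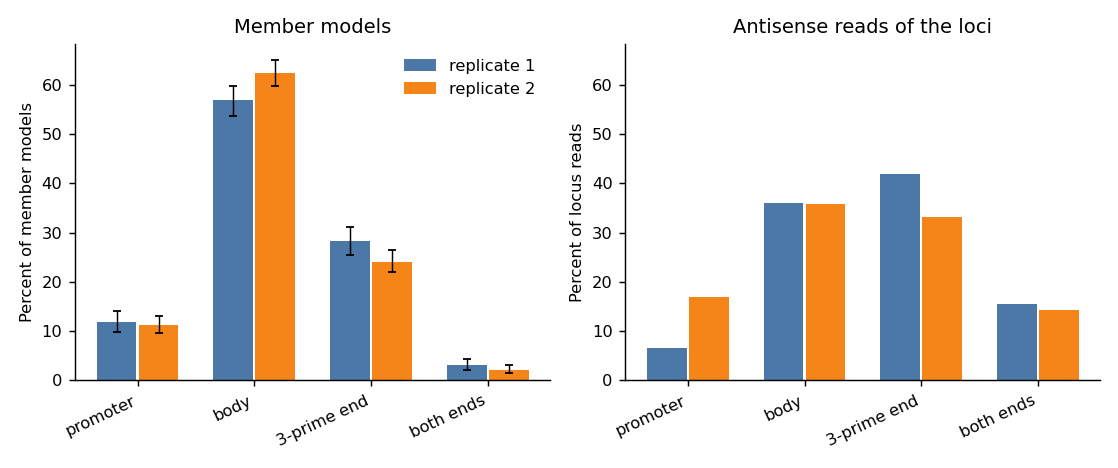
Percent of member models (left, bars with exact 95% intervals) and percent of the antisense reads of the loci (right) at the promoter, in the body, at the 3′ end or at both ends of the opposite gene, for each library. The body holds most models, 56.8% and 62.4%, whereas the 3′ end holds 41.9% and 33.1% of reads.

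Only a few loci began near the start of the gene they face. The 5′ end of the antisense model lay within 1000 bases of the opposite start at 81 of 1604 loci (5.05%, interval 4.03 to 6.24%), at the start base or inside the gene in all 81. Head-to-head models that begin upstream of a gene without overlapping it would not be classed as Antisense. At Gm20300, a lincRNA, the antisense model began on the base where the gene starts (chr10:30606634-30608141). At Dhrs3, a retinaldehyde reductase gene, 126 and 92 antisense reads (chr4:144893077-144893375) stood against 46 and 34 of the gene, and RefSeq places Vps13d on the same strand there. Epas1, which encodes a hypoxia-inducible factor, had 36 and 44 reads (chr17:86753700-86754308) against 49 and 25, and Fosl2, which encodes an AP-1 transcription factor, had 21 and 37 (chr5:32135274-32136173) against 125 and 149. Epas1 and Fosl2 were chosen after their values were seen. In the body class, Malat1, a nuclear non-coding RNA, had 72 and 260 antisense reads (chr19:5798022-5799000) against 2220 and 3796 of its own. At both ends lay Spry3, on a scaffold assigned to chromosome X without a position, with 34 and 48 reads against 2 and 1.

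Members at 3′ ends often stopped at runs of A. For this class the 20 bases past the model's end could be read for 255 of 291 members in replicate 1 and 289 of 337 in replicate 2. Of these, 137 (53.7%, interval 47.4 to 60.0%) and 155 (53.6%, interval 47.7 to 59.5%) had 12 or more A among the 20. Over all 404942 windows of 20 bases in the last 1000 transcript bases of the same genes, read on the same strand, 3.64% had 12 or more. The members fell into separate ranges: 28 of 255 and 34 of 289 had 20 of 20, whereas 2 and 4 had 11. Members with 12 or more A held 59.4% and 52.6% of the reads of those that could be read, with a median of 12 and 10 reads each, against 10.5 and 10 for the others. For the remaining classes the bases could be read for 20.0 to 51.3% of members, since only bases inside annotated exons are available, so the check over all members is void. Among body members that could be read, 35.0% of 300 and 40.2% of 361 had 12 or more A. At promoters the shares were 24.3% of 37 and 18.0% of 50. Such ends were therefore not particular to the 3′ end class. The part of internal priming in these reads was not tested. Intergenic models could not be compared, as their bases were not available.

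**Figure D3:**
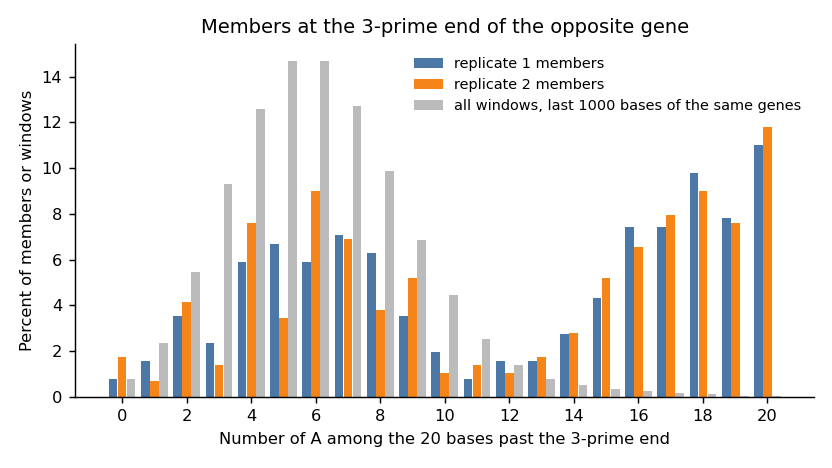
Number of A among the 20 bases past the 3′ end of members at the 3′ end of the opposite gene (255 members in replicate 1, 289 in replicate 2), as percent of members, with all 20-base windows of the last 1000 transcript bases of the same genes in grey. Members show a peak from 15 to 20 A, reaching 11% and 11.8% at 20, where windows reach 0.0556%, beside a broad lower peak that overlaps that of the windows.

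The 5′ ends of many members lay close to an annotated transcript 3′ end of the opposite strand, of any gene there. Within 50 bases of such an end were 218 of 1030 members in replicate 1 (21.2%, interval 18.7 to 23.8%) and 243 of 1398 in the other library (17.4%, 15.4 to 19.5%), with 38.7% and 32.9% of member reads. Among members at 3′ ends, this held for 71 of 137 with an A-rich end and 66 of 118 without in replicate 1, and for 80 of 155 and 66 of 134 in replicate 2. The shares, 51.8% and 55.9% in replicate 1 and 51.6% and 49.3% in replicate 2, have overlapping intervals. At least 1 end lay exactly on an annotated exon boundary of the opposite strand for 53.2% and 51.6% of members, and both ends did for 15.7% and 15.5%. No background share was computed for transcript ends or exon boundaries. Exons of the opposite strand were overlapped by 80.3% and 76.4% of members. For 15.3% and 13.3% an annotated gene on the same strand ended up to 5000 bases before their 5′ end, and of the loci this held for 22.3% at 3′ ends and 11.2% in bodies.

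Few members were spliced. In replicate 1 22 of 1030 (2.14%) had more than 1 exon and in replicate 2 26 of 1398 (1.86%), with up to 6 exons. Antisense models under 5 reads were spliced more often, 694 of 9987 (6.95%) in replicate 1 and 642 of 11916 (5.39%) in replicate 2. The low share thus holds for the members and not for all Antisense models, and the part of the read minimum was not tested. Intergenic models of 5 or more reads were spliced in 10 of 144 (6.94%) and 5 of 152 (3.29%). The difference passed a two-sided Fisher's exact test in replicate 1 (adjusted p = 0.00444 over 4 tests, odds ratio 0.292) and did not in replicate 2 (adjusted p = 0.22, odds ratio 0.557). With a minimum of 10 reads it passed in neither library (adjusted p = 0.928 and 1.00), and the odds ratio in replicate 2 was then 1.44. Spliced members were commoner at promoters. At the promoter or both ends 10 of 154 members (6.49%) were spliced in replicate 1 and 10 of 188 (5.32%) in replicate 2, against 12 of 876 (1.37%) and 16 of 1210 (1.32%) elsewhere. Both differences passed the two-sided Fisher's exact test (adjusted p = 0.00216 and 0.00231, odds ratios 5 and 4.19). The span decides the class, introns included, and spliced members had median spans of 7183 and 6424.5 bases against 1540 and 1543.5 for single-exon members. The models of a library share that library and are not replicates of a condition.

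Most antisense introns had the exact coordinates of an annotated intron of the opposite strand. This held for 17 of 30 introns of replicate 1 (56.7%, 95% interval from 37.4 to 74.5%) and 22 of 34 of replicate 2 (64.7%, from 46.5 to 80.3%), and 0 matched an annotated intron of their own strand. Of the 46 different introns, 18 were in members of both libraries and 14 of those were mirrored, whereas of the 28 in members of 1 library 11 were. By model the split was more even. In replicate 1, 11 of 22 spliced members had every intron mirrored and 11 had none. In replicate 2 these were 16 and 10 of 26. Introns of 1 model are not independent, which the intervals do not cover. Members with every intron mirrored held 456 of 562 spliced reads in replicate 1 and 406 of 465 in replicate 2. Such models share the intron coordinates of the opposite mRNA and differ from it in strand. How these reads came to be placed on the antisense strand was not tested.

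The most abundant mirrored model was that of Mc2r, which encodes the ACTH receptor of the adrenal cortex. Its locus had 216 reads in replicate 1 and 1 read in replicate 2, against 224 and 113 reads of Mc2r. The model (chr18:68406907-68429320) began and ended on the annotated ends of the gene, and 202 of its reads in replicate 1 lay on a model with 2 mirrored introns. Antisense and sense reads were thus near equal in replicate 1, and the libraries did not share the antisense model. Crebbp, a histone acetyltransferase gene, had 33 and 41 antisense reads against 15 and 18 of the gene, on a model of 6 exons with all 5 introns mirrored (chr16:4126972-4213997). Igf1r, the receptor gene for insulin-like growth factor, had 27 and 82 (chr7:67952827-68004355) against 27 and 55. Mbnl1, a splicing regulator gene, had 47 and 70 (chr3:60529549-60595749) against 307 and 245. All 3 were read in both libraries, Igf1r at 18.5 and 82.7 CPM.

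Gtf2a1, which encodes a subunit of the general transcription factor TFIIA, had 32 and 13 antisense reads (chr12:91575584-91589639) against 10 and 4. Ccdc80 had 35 and 17 (chr16:45094053-45095844) against 47 and 25, and the survival gene Bcl2l1 17 and 33 (chr2:152826180-152830618) against 55 and 47. The locus opposite Nr2f2, which encodes the nuclear receptor COUP-TFII, had 1 and 62 reads (chr7:70353442-70360593) against 64 and 50, and its 2 mirrored introns were in 48 reads of replicate 2. Other mirrored introns faced Tshz1, Tspan12, Sparc, B2m, Prpf38b, Carmil1, Lyrm4, Knop1, Zfhx4 and Chtop, with 7 to 27 reads in a library where a member held them. The model opposite B2m, the light chain gene of class I molecules, also overlaps Patl2 on its own strand. Spliced loci without a mirrored intron included Tbxas1, with 20 and 11 reads on 2 introns, and Snx33, with 16 and 6 on 1.

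**Figure D4:**
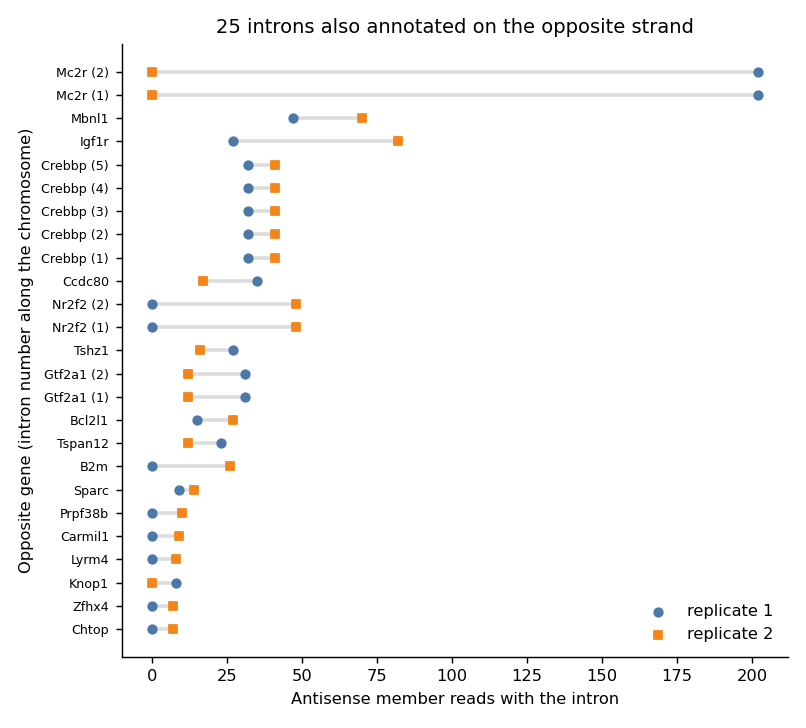
Reads of antisense members with each of the 25 introns whose coordinates are also those of an annotated intron of the opposite strand, in replicate 1 (circles) and replicate 2 (squares); numbers in brackets count a gene's mirrored introns along the chromosome. The 2 Mc2r introns stand at 202 and 0 reads and the 5 Crebbp introns at 32 and 41.

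Antisense reads showed almost no rank correlation with the reads of the opposite gene. Among loci with members in a library and an annotated opposite gene, the median was 20.0 antisense reads per 100 reads of that gene in replicate 1 (969 loci, quartiles 6.38 and 73.7) and 21.9 in replicate 2 (1322 loci, quartiles 7.30 and 66.7). The antisense locus had more reads than the gene at 219 loci (22.6%) and 272 loci (20.6%). Across loci the Spearman correlation between antisense and opposite reads was 0.0223 and 0.0878, given as a description because the loci were chosen on their antisense reads and share a library. By position the median over both libraries was 22.4 per 100 at 3′ ends, 14.1 at promoters, 12.7 in bodies and 280.0 for the 45 loci at both ends. Some loci at both ends face new gene models, which are named per library. At 1 of these, on chromosome 11, 74 and 52 antisense reads stood against 0 and 9. The ratio over both libraries is overstated at such loci, so 280.0 may not be comparable with the other medians. The genes with a member opposite were themselves well read, with a median of 50 and 42 reads against 17 and 13 over all genes with a read. Of these genes, 22.3% and 24.8% were in the top 10% of genes by reads.

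**Figure D5:**
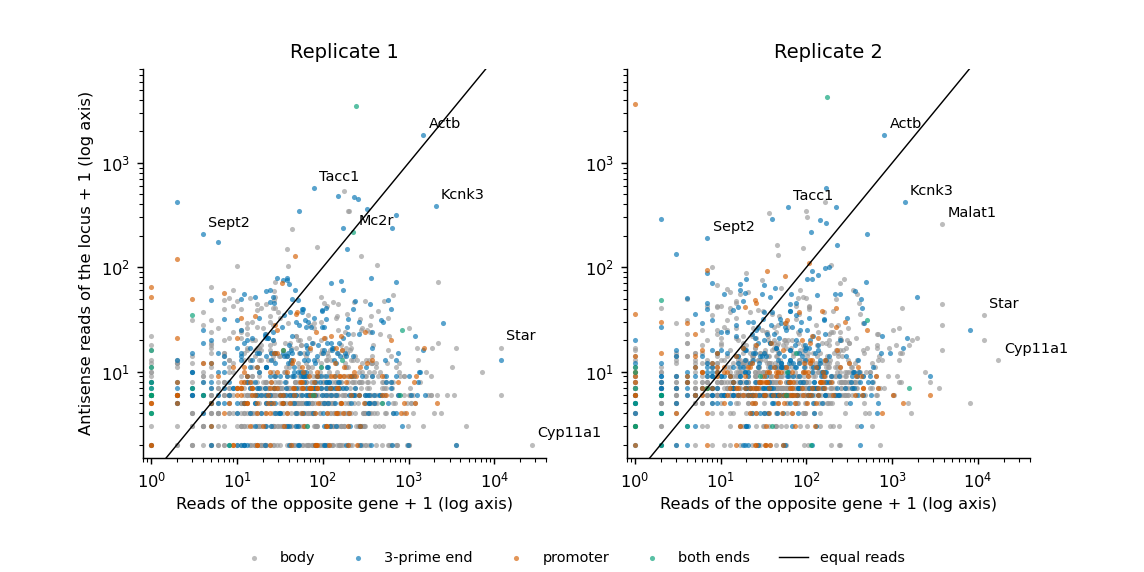
Antisense reads of each locus (vertical) against the reads of the annotated gene it faces (horizontal), both as reads + 1 on log axes, for loci with antisense reads in that library; colours give the position and the line marks equal reads. Sept2, Tacc1 and Actb lie above the line in both libraries, and Star and Cyp11a1 far below it.

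Whether the genes facing members differed between the libraries more often than genes at large depended on the test. Over all annotated genes with 10 or more reads, 11.6% passed a two-sided exact binomial test (Benjamini-Hochberg adjusted), 5.74% higher in replicate 2 and 5.88% higher in replicate 1. Of 1386 opposite genes, 1228 had enough reads and 225 passed (18.3%), 147 of them higher in replicate 2 and 78 higher in replicate 1. Their median log2 ratio of replicate 2 over replicate 1 was 0.14, against 0.00 over all genes. They were also read more deeply, with a median of 114.5 reads over both libraries against 68, and the part of depth in the difference was not tested. Scaled to spike-in totals, 66 were higher in replicate 2 and 274 in replicate 1, together 27.7% against 21.3% of all genes. In edgeR's exact test, with the spread estimated from the same libraries, 1 passed of 1228 (76 at an unadjusted p under 0.05), which is 0.0814% against 0.244% of all genes and so the opposite order.

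The antisense loci themselves shifted toward replicate 2. Among 426 loci with 20 or more antisense reads and a tested opposite gene, the median log2 ratio of CPM was 0.68, and that of their opposite genes was 0.15. Of these loci 268 lay within 2-fold, 143 were over 2-fold higher in replicate 2 and 15 over 2-fold higher in replicate 1. Across the 426 loci the log2 ratios of locus and gene correlated with Pearson's r = 0.114 and Spearman's rho = 0.161, again a description. Malat1 and its antisense locus were both higher in replicate 2, with log2 ratios of 1.34 (adjusted p = 3.15e-273, binomial test) and 2.40. Igf1r did likewise, at 1.58 (adjusted p = 5.85e-05) and 2.14. Actb had a negative log2 ratio, -0.32 (adjusted p = 1.44e-05, binomial test). Its antisense locus had a positive one, 0.57, which was under the median of 0.68. No test was made of the loci, since their reads chose them.

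At the most expressed genes of steroid synthesis, antisense reads were few per read of the gene. Of 20 steroidogenesis genes, 8 lay opposite a locus (Star, Cyp11a1, Hsd3b1, Fdx1, Nr5a1, Mc2r, Mrap and Scarb1), with 11 loci and 296 and 216 reads, most of the former at Mc2r. The share, 40.0%, compares with 7.65% of all genes with a read and 15.2% of genes with 100 or more reads. Cyp11a1, the cholesterol side-chain cleavage enzyme, had 1 and 12 antisense reads (chr9:58016440-58019274) against 27214 and 17278 of the gene. Star, which carries cholesterol into mitochondria, had loci with 16 and 34 and with 0 and 19 reads against 11801 and 11712. Hsd3b1 had 12 and 24 and 5 and 4 against 12025 and 8170. These loci of Cyp11a1, Star and Hsd3b1 had at most 0.294 antisense reads per 100 of the gene. Such ratios were not particular to steroid synthesis genes. Over both libraries the highly read genes Chgb and Gnas had 0.218 and 0.209 per 100, although Kcnk3 had 23.3. The locus at the 3′ end of Fdx1 had 5 and 51 reads (chr9:51943862-51945846) and a locus in its body 4 and 20, against 1066 and 1935 of Fdx1, which was itself higher in replicate 2 (log2 ratio 1.42, binomial adjusted p = 4.70e-153). Mrap, the partner of the ACTH receptor, had 22 and 22 against 461 and 664, Nr5a1, the master regulator of steroidogenic cells, 15 and 20 against 1457 and 1499, and Scarb1, the lipoprotein receptor, 0 and 9 against 2548 and 2424.

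Of 20 cholesterol supply genes, 5 faced a locus (25%), with 8 loci and 360 and 324 reads, most at Soat1. The share over all genes with a read was 7.65%, and over genes with 100 or more reads 15.2%. Dhcr7, the last enzyme of cholesterol synthesis, had 30 and 58 reads at its 3′ end (chr7:143848044-143848409) against 478 and 365. Hmgcs1, an enzyme early in that pathway, had 3 and 5 against 1128 and 1044. Abca1, a cholesterol exporter, had 3 loci in its body with 0 to 6 reads in replicate 1 and 9 to 12 in replicate 2, against 10 and 26 reads of the gene. Of 17 chromaffin genes 3 faced a locus (17.6%). Among them were Chgb, which encodes a granule protein, with 9 and 15 reads against 7182 and 3806, and Scg2 with 5 and 0 against 1533 and 857. Of 14 stress genes 1 faced a locus (7.14%), Hspa1b, with 4 and 6 reads against 490 and 1583. The chromaffin share was near the 15.2% of genes with 100 or more reads and above the 7.65% of all genes with a read. The stress share was near that 7.65% and below the 15.2%.

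Imprinted genes are a class in which antisense transcripts are known regulators. Of 22 with a read, 6 faced a locus (27.3%), with 9 loci and 98 and 115 reads. This compares with 7.65% of all genes with a read and 15.2% of genes with 100 or more reads. Regulation by these loci was not tested. Peg10 had 3 loci, with 14 and 16 reads at its 3′ end against 16 and 17 of the gene and 2 to 5 at the others. Impact had 32 and 41 (chr18:12991529-12992304) against 17 and 15, so antisense exceeded sense in both libraries. Grb10 had 19 and 14 (chr11:11930508-11933094) against 25 and 23. Meg3, a maternally expressed lincRNA, had 15 and 20 and 1 and 5 against 207 and 382, Rian 7 and 5 against 2 and 6, and Gnas 5 and 4 against 2788 and 1517.

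Loci read in 1 library alone were rare, 44 with reads in replicate 1 only and 97 in replicate 2 only, and the leading ones were not all new RNAs of that library. Single-base models opposite Gm2a, which encodes an activator of ganglioside breakdown, had 345 reads in replicate 1 at position 55110269 of chromosome 11 and 301 in replicate 2 at position 55110228. Single-base models opposite Set, a histone chaperone gene, had 39 reads in replicate 1 at position 30071790 of chromosome 2 and 40 in replicate 2 at position 30071792. Both pairs lie close together and count as separate loci because a single base cannot overlap its neighbour, so neither gene's antisense reads were particular to 1 library. In replicate 1 only, others were Gm10874 (51 reads, over the same-strand pseudogene Got2-ps1) and a locus on chromosome 19 facing a new gene model (39 reads). In replicate 2 only, they were Gm26825, 2 loci facing new gene models (116 and 69 reads, the latter over Klhl10 on its own strand) and Tbx3, where 108 reads lay over the annotated antisense gene Tbx3os1 (chr5:119671365-119671858).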

How the data were processed

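Long reads of 2 libraries had been assigned to transcript models on mm10 with GENCODE M21, and the authors deposited whole-number counts per model without normalization, per the file headers and the text beside the files. The column names and tags match TALON, a program that annotates long reads. Its version, the aligner and read filters are not given in the sources used here. Total counts were 1478362 and 1007541, so a model at the minimum of 5 reads carries wide counting error. The members and lists were chosen with earlier results of these data known.

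Models of the class Antisense were joined into loci by exon overlap of at least 1 base on the same strand, and each locus was described by its model of highest CPM. Locus reads are those of all Antisense models assigned to it. The annotation deposited for a library lists gene spans from the models seen there, so annotated genes were given their M21 span; this was chosen after seeing the data. The opposite gene is the one that annotation names, and gene reads sum all its models. Genes were compared by an exact binomial test with TMM factors (0.989 and 1.01), a minimum of 10 reads, Benjamini-Hochberg adjustment at 0.05 and a prior of 0.5 counts for log2 ratios. Steps were tested on simulated data. Sequence came from M21 transcripts, as no genome was used here, and RefSeq was used for same-strand gene names.

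Loci were named as the 15 most abundant in both libraries, the 8 most abundant spliced, the 5 most abundant per position, the 5 with the most antisense per opposite read, the 5 most abundant in 1 library only, and those opposite the gene lists. Alternatives covered other minimums, windows, joining, matching, scaling with DESeq2, totals and ERCC, edgeR's exact test, and leaving out each library. Tools were edgeR 4.0.16 and DESeq2 1.42.0 in R 4.3.3, and scipy 1.17.1, statsmodels 0.14.6, pandas 2.3.3, numpy 2.4.6 and matplotlib 3.10.9 in Python 3.11.15. Left out were spike-ins and, from gene tests, genes new to the annotation. The labels also name SIRV spike-ins, which were not analysed here. Some loci that the naming rule selects are not reported here.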

Additional observations from a re-analysis of the deposited data

Results flagged for a closer look

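Reads on the minus strand of ERCC spike-in RNAs, which no comparison above used, fell on a few sequences. ERCC-00009 had 135 such reads and 1 sense read in replicate 1 and 110 and 0 in replicate 2, and ERCC-00116 had 74 and 41 against 0 sense reads in both. All other spike-ins together had 6 minus-strand reads of 18130 in replicate 1 (0.0331%, interval 0.0121 to 0.072%) and 3 of 15401 in replicate 2 (0.0195%, interval 0.00402 to 0.0569%). Over all spike-ins the minus strand took 1.17% and 0.99% of spike-in reads, against the 2.72% and 5.05% of mouse reads on Antisense models. Antisense genes also held 515 and 604 models of classes other than Antisense, with 1252 reads in replicate 1 and 1993 in replicate 2, which are outside the members.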

How the results depend on the processing

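Of 113 alternative values, 67 stayed close to the reported ones, 44 moved, 1 lost significance and 1 reversed; the cause was not tested except where fewer or more models follow from the setting itself. A minimum of 3 or 10 reads gave 2032 or 452 members in replicate 1, 2746 or 554 in replicate 2 and 3276 or 650 loci. The share found in the other library, 94.2% over both directions (92.9 to 95.8% with 1 library left out), was 91.4% with overlap of at least 0.5 of the shorter model, 85.5% and 96.9% with 3 and 10 reads and 64.6% with 5 reads asked of the match. Windows of 500 and 2000 bases gave 8.04% and 21.5% of loci at promoters, 74.3% and 43.3% in bodies, 16.2% and 29.6% at 3′ ends and 1.5% and 5.55% at both ends, against 12.1%, 61.3%, 23.8% and 2.81%. Ends of the most abundant annotated transcript (1295 loci) gave 14.1%, 51.5%, 27.6% and 1.24%. Minimums of 3 and 10 reads gave 67.8% and 56.0% in bodies and 18.3% and 30.6% at 3′ ends, and 10 reads gave 10% at promoters. With a library left out, bodies held 56.9 to 62.3% and 3′ ends 24.2 to 28.0%. Splicing against Intergenic models at 10 reads had an adjusted p of 0.928 in replicate 1 and 1.00, with reversed direction, in replicate 2 (all alternatives 0.00108 to 0.928 and 0.0901 to 1.00). Antisense reads per 100 opposite reads had a median of 14.1 over all loci and both libraries, 23.3 against Known transcripts only, 13.6 against all annotated genes on the opposite strand (added after seeing the data), and 20.0 to 21.9 in single libraries, where only loci with members count. Opposite genes called numbered 340 with ERCC totals (66 higher in replicate 2, 274 higher in replicate 1; 27.7% against 21.3% of all genes) and 1 with edgeR's exact test (1 and 0; 0.0814% against 0.244%). Alternatives added after seeing the data left out models under 50 bases, on an annotated gene of their own strand or facing new models, which gave 959 and 1298 members and 1.13% of loci at both ends. Gene spans of the deposited annotation gave 54.9% of loci in bodies and 4.49% outside the gene. Without own-strand models, Antisense models took 2.61% and 4.54% of mouse reads. With 15 of 20 or 6 of the nearest 10 bases asked for, A-rich ends were 48.0% and 55.3% of 3′ end members, against 53.7%. No paired analysis was possible because the series has 1 group. Members near 5 reads carry wide counting error.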
